A study of Homo sapiens with 4 samples.

Results

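The genes described here are 37 genes of glycolysis and of the hypoxia response, measured by RNA sequencing after knockdown of IGF2BP3 in the established neuroblastoma line SK-N-BE(2). They were taken by symbol from the 64252 rows of the deposited count table, and each of the 37 matched 1 Ensembl row. The list holds the enzymes from hexokinase to lactate dehydrogenase, carriers of glucose and lactate, the alpha subunits of the hypoxia-inducible factors (HIF), their oxygen sensors and genes known as HIF targets. Of the 37 genes, 36 passed the filter on low counts and were tested, and CA9 did not. One group, shIGF2BP3, was SK-N-BE(2) transfected with a short hairpin RNA against IGF2BP3 (2 libraries), and the other, shControl, was the same line given a control hairpin (2 libraries). Each group carries 1 hairpin name in the labels, so an effect of the hairpin apart from IGF2BP3 loss cannot be told apart from the knockdown. The labels do not say whether replicates were cultured apart, and p-values therefore reflect a spread that may be purely technical. Oxygen level and glucose supply of the cultures were not stated in the labels.

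Glycolysis splits glucose into pyruvate in the cytosol, and lactate dehydrogenase turns pyruvate into lactate, which leaves the cell through monocarboxylate carriers. When oxygen is low, the prolyl hydroxylases of the EGLN family stop marking HIF alpha subunits for destruction by the VHL ligase, and HIF then binds DNA at a short core sequence near genes for glycolysis, blood vessel growth and matrix processing. Tumours of the sympathetic nervous system, such as neuroblastoma, are known for high glycolysis where MYCN is amplified. IGF2BP3 binds mRNAs, among them ones that carry m6A methylation.

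Total counts lay between 26755695 and 31946756 per library. Counts of IGF2BP3 itself were 813 and 875 in shIGF2BP3, against 4215 and 4347 in shControl, as the labels say. All 10 sympathetic neuroblast markers examined were detected, and 8 of them were lower after the knockdown and 1 higher. Over all 19767 genes tested (test given below), 25.6% were lower and 25.9% higher. The summed level of the neuroblast markers was 2990.1 and 2858.6 CPM in shIGF2BP3 and 4572.2 and 4539.0 CPM in shControl. CPM is a gene's counts relative to its library's total, scaled by the TMM method. Summed over 6 leukocyte markers the level was 5.03 to 6.07 CPM in shIGF2BP3 and 2.17 to 3.19 CPM in shControl, with CD3E and LYZ at 0. Summed over 6 epithelial markers it was 6.82 to 8.58 CPM in shIGF2BP3 and 11.4 to 14.9 CPM in shControl. Over 5 endothelial markers it was 2.73 to 3.21 CPM in shIGF2BP3 and 1.63 to 3.80 CPM in shControl, with PECAM1 and KDR at 0. All 10 genes of a short proliferation list (MKI67, TOP2A, PCNA and others) were lower, against 25.6% of all genes tested. Their sum was 967.2 and 958.2 CPM in shIGF2BP3 and 3225 and 3096 CPM in shControl. The part of the neuroblast and proliferation genes in the results on glycolysis and HIF genes was not tested. In such bulk RNA, fewer cells of a kind and less RNA per cell cannot be told apart.

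Of the 36 genes tested, 13 rose and 17 fell after the knockdown and 6 did not pass (quasi-likelihood test of edgeR, Benjamini-Hochberg adjusted p below 0.05). The 30 calls make up 83.3%, against 51.5% over all 19767 genes tested, of which 25.9% were higher and 25.6% lower. Abundant genes were called more often: where the average log2 CPM reached 4 or more, the called share was 69.6%, and 28 of the 32 members at that level were called. Called changes of at least 2-fold were found in 7 members or 19.4%, against 19.5% over all genes tested. The values of the groups did not overlap in 33 of the 36, or 91.7%, against 74.5% over all genes tested. The median log2 fold change of the members was -0.17, and that of all genes was 0.0094. The list thus held mostly moderate changes in both directions, described below by role in the pathway.

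**Figure D1:**
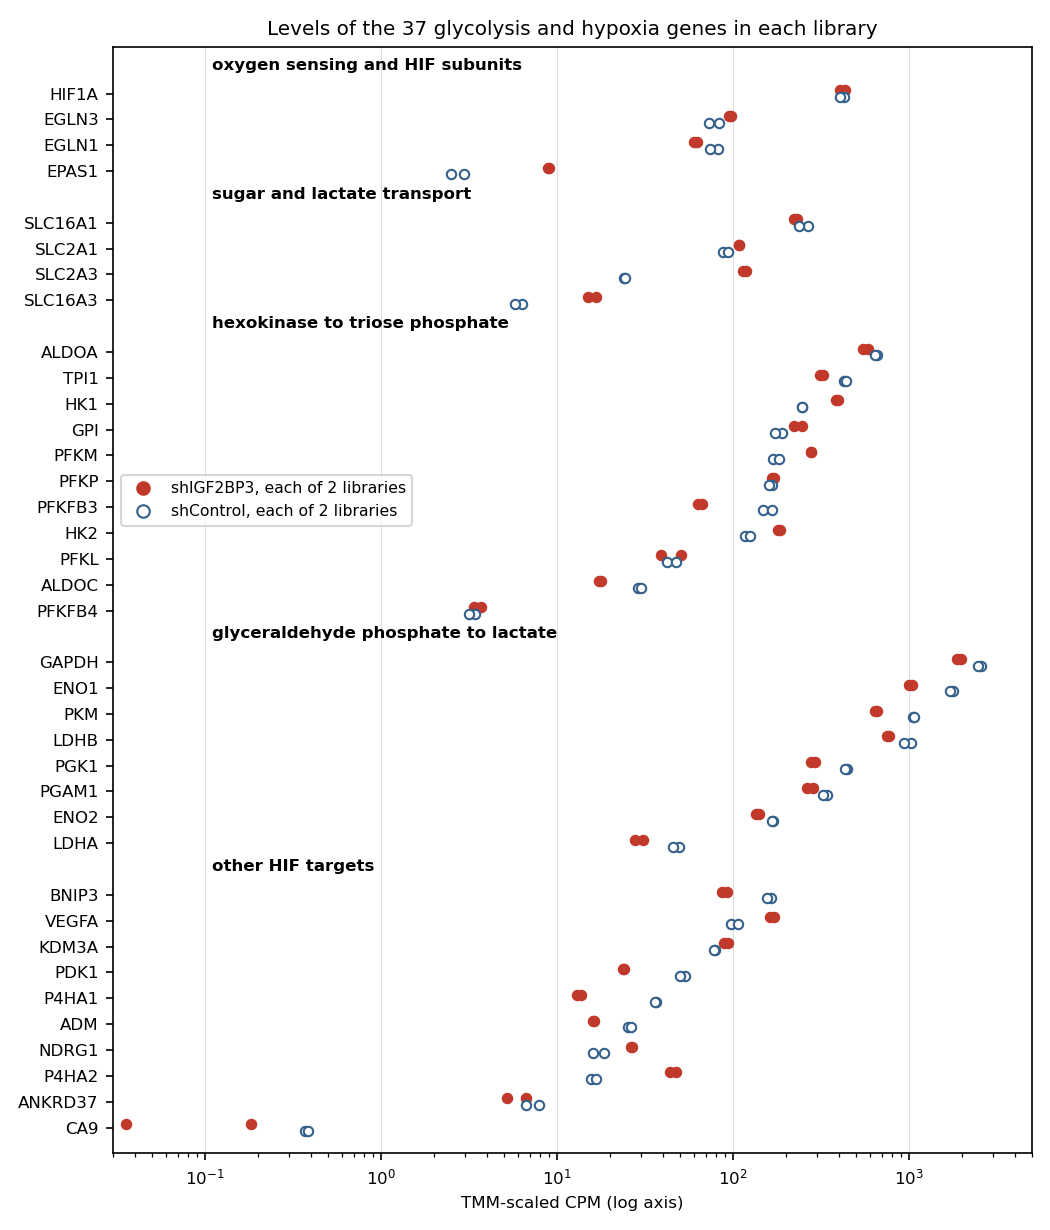
Level of each of the 37 genes in each library, as TMM-scaled CPM on a log axis, grouped by role. Filled points are the 2 shIGF2BP3 libraries and open points the 2 shControl libraries. Replicates lie close together beside the differences between groups for genes such as SLC2A3, P4HA1 and P4HA2, while HIF1A, PFKL and PFKFB4 overlap.

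Glucose carriers and the first enzymes were higher. SLC2A3, the high-affinity glucose carrier of neurons, had 113.4 and 118.9 CPM in the shIGF2BP3 libraries and 23.8 and 24.4 CPM in the shControl libraries. It rose 4.81-fold (log2 2.27, SE 0.09, adjusted p = 1.257e-12), the greatest change among the 36 genes. The gene (ENSG00000059804) spans bases 7919230 to 7936275 of chromosome 12 on GRCh38, minus strand. Its near-identical copy SLC2A14 could take or give reads, and it stood at 1.09 and 1.49 CPM in shIGF2BP3 and 0.223 and 0.351 CPM in shControl, with fewer counts than SLC2A3 in each library. SLC2A1, the carrier found in most cells, had 108.4 and 107.7 CPM in shIGF2BP3 and 87.5 and 93.5 CPM in shControl (log2 0.26, SE 0.08, adjusted p = 0.00867). That small rise lost its call without shControl replicate 1, at an adjusted p of 0.0705.

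Per exon length, SLC2A3 made up 44.5% and 45.9% of the summed counts of these 2 carriers in shIGF2BP3, against 17.3% and 16.7% in shControl. In the knockdown the 2 carriers thus stood at like levels, 18.9 RPKM for SLC2A3 and 22.9 RPKM for SLC2A1 (TMM-scaled CPM per kilobase of exons), against 3.91 RPKM for SLC2A3 and 19.2 RPKM for SLC2A1 in shControl. An exact permutation test over 2 against 2 libraries cannot go below p = 0.333 (two-sided), which was the value for each of 11 such sets of related genes, so the shares are given as descriptions.

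Both hexokinases, which trap glucose as its phosphate, rose by like amounts. HK1 had 395.4 and 386.7 CPM in shIGF2BP3 and 245.2 and 245.7 CPM in shControl (log2 0.67, SE 0.06, adjusted p = 5.963e-08). HK2, the isozyme often raised in tumours, had 183.8 and 180.4 CPM in shIGF2BP3 and 117.5 and 124.3 CPM in shControl (log2 0.59, SE 0.07, adjusted p = 1.262e-06). Per exon length the share of HK1 in the pair was 67.4 ± 0.05% in shIGF2BP3 and 66.2 ± 0.86% in shControl (SD, n = 2 each). GPI, which turns glucose phosphate into fructose phosphate, had 246.8 and 223.1 CPM in shIGF2BP3 and 189.2 and 174.2 CPM in shControl (log2 0.37, SE 0.07, adjusted p = 0.000306). For all 3 genes both knockdown libraries lay above both control libraries. Groups did not overlap, in either direction, in 74.5% of all genes tested.

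Of the phosphofructokinases, which catalyse the committed step, PFKM rose. This muscle isozyme had 277.7 and 276.6 CPM in shIGF2BP3 and 168.8 and 181.7 CPM in shControl (log2 0.66, SE 0.07, adjusted p = 1.855e-07). Exons of PFKM share 628 bases with SENP1 on the other strand. The SENP1 row held 798 and 762 counts for shIGF2BP3 and 1383 and 1440 for shControl, and the PFKM row 7868 and 7589 for shIGF2BP3 and 4546 and 5688 for shControl. PFKP, the platelet isozyme, stood at 170.5 and 166.8 CPM in shIGF2BP3 and 165.5 and 160.2 CPM in shControl, and PFKL, the liver isozyme, at 50.4 and 38.8 CPM in shIGF2BP3 and 41.9 and 47.4 CPM in shControl. Neither passed the test, with an adjusted p of 0.563 for PFKP, whose groups did not overlap, and 0.981 for PFKL, whose groups did. Per exon length PFKM made up 48.7 ± 0.84% of the 3 isozymes in shIGF2BP3 and 38.2 ± 1.44% in shControl (SD, n = 2 each). The share of PFKP was 44.9 ± 0.21% in shIGF2BP3 and 53.8 ± 2.02% in shControl. The isozyme with the highest level per length was PFKM in the knockdown and PFKP in the control.

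PFKFB3 and PFKFB4 make and break the sugar bisphosphate that activates phosphofructokinase, PFKFB3 being known for strong kinase activity. PFKFB3 fell, while HK1, HK2, GPI and PFKM rose. Its level was 63.1 and 66.7 CPM in shIGF2BP3 and 148.0 and 166.1 CPM in shControl (log2 -1.28, SE 0.08, adjusted p = 4.54e-10), on chromosome 10 from 6144934 to 6254644, plus strand, GRCh38. PFKFB4 was low in all libraries, at 3.71 and 3.39 CPM in shIGF2BP3 and 3.42 and 3.16 CPM in shControl, with overlapping values and no call (log2 0.11, SE 0.27, adjusted p = 0.756).

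From aldolase to lactate dehydrogenase, all 11 genes fell, against 25.6% lower over all 19767 genes tested. That stretch of the pathway was marked off after the values were seen, and no test of it was made. Its summed level was 6122.5 and 5834.6 CPM in shIGF2BP3 and 8541.9 and 8281.4 CPM in shControl. The 6 genes of hexokinase, GPI and phosphofructokinase summed to 1324.6 and 1272.4 CPM in shIGF2BP3 and 928.1 and 933.6 CPM in shControl. Of these, 4 rose, 0 fell and 2 did not pass, against 25.9% higher over all genes tested. The first sum was lower and the second higher in both knockdown libraries than in both control libraries. Of single genes tested, 74.5% also had groups without overlap.

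**Figure D2:**
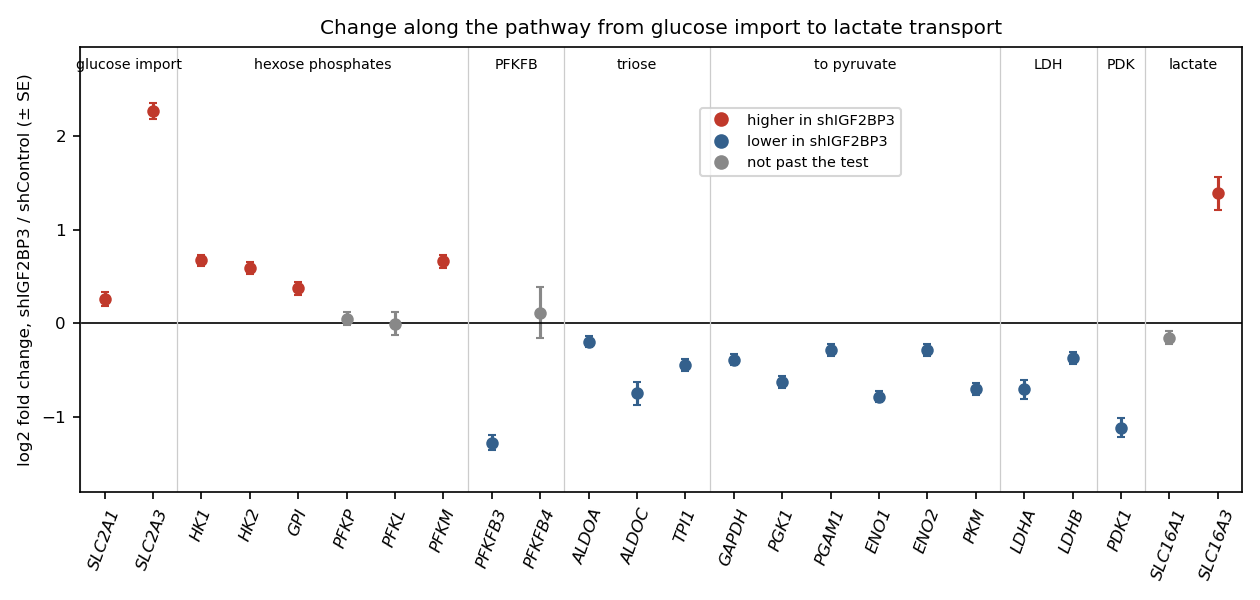
Log2 fold change of shIGF2BP3 over shControl with its SE (vertical axis) for the members in the order of the pathway, from glucose import at the left to lactate transport at the right. Red points were higher, blue points lower, and grey points did not pass the test. The glucose carriers SLC2A1 and SLC2A3, the hexokinases, GPI and PFKM lie above 0, and the 11 genes from ALDOA to LDHB lie between -0.20 and -0.78.

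Among the aldolases, which cut the hexose into triose phosphates, ALDOA had 585.3 and 548.1 CPM in shIGF2BP3 and 654.1 and 643.0 CPM in shControl (log2 -0.20, SE 0.06, adjusted p = 0.0124). This was the only call of the 11 that an alternative ended, at an adjusted p of 0.0589 with upper-quartile scaling, 0.111 with library size alone and 0.157 without shIGF2BP3 replicate 2. ALDOC, the brain isozyme, fell further, to 17.2 and 17.8 CPM in shIGF2BP3 against 28.9 and 29.9 CPM in shControl (log2 -0.75, SE 0.12, adjusted p = 4.052e-05). TPI1, which interconverts the triose phosphates, had 324.2 and 312.8 CPM in shIGF2BP3 and 427.7 and 440.9 CPM in shControl (log2 -0.45, SE 0.06).

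GAPDH, the oxidising step and often a reference gene for PCR, was the member with the highest level, in counts and per exon length. It had 1978 and 1868 CPM in the shIGF2BP3 libraries and 2559 and 2474 CPM in the shControl libraries, 0.76 times the control level (log2 -0.39, SE 0.06, adjusted p = 2.393e-05). PGK1, the first ATP-making step, had 291.6 and 277.3 CPM in shIGF2BP3 and 445.1 and 434.5 CPM in shControl (log2 -0.63, SE 0.06). PGAM1, a mutase, had 285.5 and 261.6 CPM in shIGF2BP3 and 343.6 and 323.3 CPM in shControl (log2 -0.28, SE 0.07). In each of these 3 genes the higher knockdown library lay below the lower control library. A lack of overlap in either direction was found in 74.5% of all genes tested.

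ENO1, the common enolase, showed the largest fall of the 11, with 1043 and 997.2 CPM in shIGF2BP3 and 1790 and 1720 CPM in shControl (log2 -0.78, SE 0.06, adjusted p = 4.594e-09). ENO2, the neuronal enolase used as a marker of neuroblastoma, fell less, with 139.8 and 135.0 CPM in shIGF2BP3 and 167.7 and 167.4 CPM in shControl (log2 -0.29, SE 0.07, adjusted p = 0.00182). ENO2 therefore held a larger share of the pair per exon length, 14.2 ± 0.09% in shIGF2BP3 and 10.5 ± 0.25% in shControl (SD, n = 2 each). PKM, which makes pyruvate, had 661.1 and 638.2 CPM in shIGF2BP3 and 1051 and 1063 CPM in shControl (log2 -0.70, SE 0.06, adjusted p = 1.71e-08). The gene-level counts do not separate its spliced forms.

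Lactate dehydrogenase counts were nearly all in the LDHB row. LDHB, the heart-type subunit, had 769.3 and 748.0 CPM in shIGF2BP3 and 1025 and 940.0 CPM in shControl (log2 -0.37, SE 0.06, adjusted p = 6.495e-05). LDHA, the muscle-type subunit and a textbook HIF and MYC target, had 27.6 and 30.7 CPM in shIGF2BP3 and 49.5 and 45.7 CPM in shControl (log2 -0.70, SE 0.10, adjusted p = 1.622e-05). Per exon length LDHA made up 1.70% and 1.93% of the pair in shIGF2BP3 and 2.27% and 2.28% in shControl. By these counts it was the minor subunit in each library of both groups. LDHA had a mean of 4.70 RPKM in shIGF2BP3 and 7.67 RPKM in shControl, and LDHB 254.3 RPKM in shIGF2BP3 and 329.4 RPKM in shControl. The 6 rows named as LDHA pseudogenes held at most 4.15% of its count. How reads shared between near-identical copies were counted is not known, so the LDHA level and share may be too low.

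In pyruvate and lactate handling, PDK1 fell and SLC16A3 rose. PDK1, which switches off pyruvate dehydrogenase and is a HIF target, had 24.0 and 23.8 CPM in shIGF2BP3 and 53.6 and 50.03 CPM in shControl (log2 -1.11, SE 0.10, adjusted p = 5.288e-08). SLC16A1, the more abundant of the 2 lactate carriers, had 229.5 and 221.1 CPM in shIGF2BP3 and 265.1 and 236.6 CPM in shControl and did not pass (log2 -0.15, SE 0.07, adjusted p = 0.0754). Without shControl replicate 2 it passed as lower, at an adjusted p of 0.00738. SLC16A3, a lactate exporter induced by HIF, rose to 16.6 and 14.9 CPM in shIGF2BP3, against 6.35 and 5.75 CPM in shControl (log2 1.39, SE 0.17, adjusted p = 2.856e-06). Its exons share 482 bases with CSNK1D on the other strand, a gene with fewer counts after the knockdown, 2829 and 2645 in shIGF2BP3 against 3910 and 4936 in shControl. SLC16A3 was the minor carrier per length in every library, at 3.97 ± 0.19% of the pair in shIGF2BP3 and 1.40 ± 0.01% in shControl (SD, n = 2 each).

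**Figure D3:**
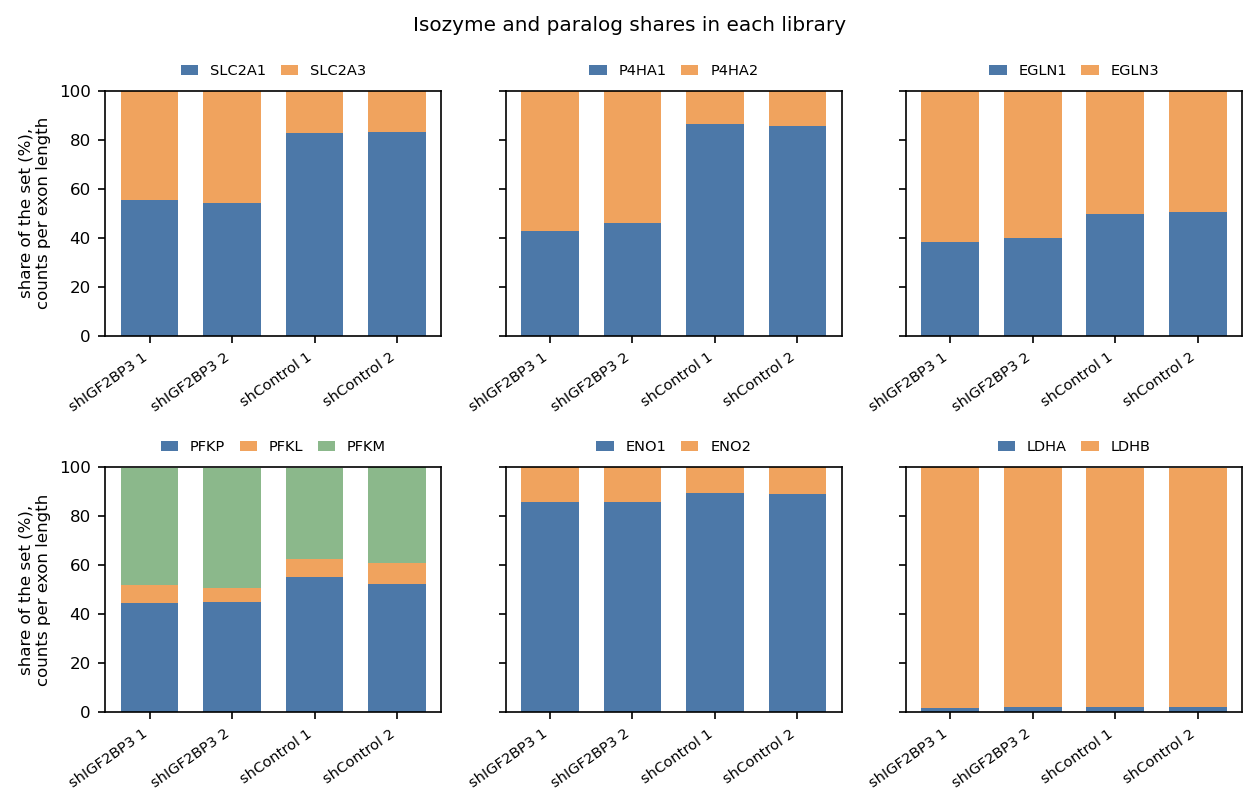
Share of each isozyme or paralog in its set (vertical axis, percent of the summed counts per exon length) in each of the 4 libraries. SLC2A3 and P4HA2 take larger shares in both shIGF2BP3 libraries than in both shControl libraries, PFKM exceeds PFKP in both shIGF2BP3 libraries and not in shControl, and LDHA is at 1.70% to 2.28% in all 4.

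Among the HIF subunits, EPAS1 rose at a low level and HIF1A did not pass the test. HIF1A, the broadly used alpha subunit, had 405.0 and 432.8 CPM in shIGF2BP3 and 425.8 and 404.0 CPM in shControl, with overlapping groups (log2 0.01, SE 0.06, adjusted p = 0.873). HIF alpha subunits are controlled mainly through protein stability, which RNA levels do not show. EPAS1, which encodes the other main alpha subunit and is known in neural crest tumours, had 8.82 and 9.04 CPM in shIGF2BP3 and 2.49 and 2.97 CPM in shControl (log2 1.70, SE 0.23, adjusted p = 7.524e-06). The gene (ENSG00000116016) spans bases 46293667 to 46386703 of chromosome 2 on GRCh38, plus strand. EPAS1 made up 1.48 ± 0.04% of the 2 alpha subunits per exon length in shIGF2BP3 and 0.46 ± 0.07% in shControl (SD, n = 2 each).

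The 2 EGLN oxygen sensors, both known to be induced by HIF, moved in opposite directions by small amounts. EGLN1, the main HIF prolyl hydroxylase, had 59.7 and 62.4 CPM in shIGF2BP3 and 81.7 and 73.8 CPM in shControl (log2 -0.35, SE 0.09, adjusted p = 0.00229). EGLN3, linked in sympathetic precursors to developmental cell death, had 97.5 and 95.2 CPM in shIGF2BP3 and 83.0 and 73.1 CPM in shControl (log2 0.31, SE 0.08, adjusted p = 0.00446). The call of EGLN3 ended without shControl replicate 2, at an adjusted p of 0.102. Its share of the pair per exon length was 60.9 ± 1.15% in shIGF2BP3 and 49.8 ± 0.44% in shControl (SD, n = 2 each).

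The remaining HIF targets were split, with 4 of 9 tested higher, 4 lower (PDK1 among them) and 1 not past the test. The shares over all genes tested were 25.9% higher and 25.6% lower. The collagen prolyl hydroxylases gave the sharpest contrast. P4HA1, a catalytic subunit of the enzyme that hydroxylates collagen, had 13.0 and 13.6 CPM in shIGF2BP3 and 36.4 and 36.1 CPM in shControl (log2 -1.45, SE 0.12, adjusted p = 1.701e-08). P4HA2, the alternative catalytic subunit, had 47.5 and 43.6 CPM in shIGF2BP3 and 15.6 and 16.5 CPM in shControl (2.83-fold, SE 0.11 on the log2 scale, adjusted p = 4.708e-09). P4HA1 (ENSG00000122884) spans bases 73007217 to 73096974 of chromosome 10 on GRCh38, minus strand. P4HA2 (ENSG00000072682) spans bases 132191838 to 132295315 of chromosome 5, also minus strand. Per exon length P4HA2 made up 57.1% and 53.8% of the pair in shIGF2BP3 and 13.5% and 14.3% in shControl. With the length of the longest transcript in place of all exons, its share was 75.6% and 73.1% in shIGF2BP3 and 26.7% and 28.0% in shControl. With either length, the predominant subunit was P4HA2 in both knockdown libraries and P4HA1 in both control libraries.

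Of the 3 collagen chain genes examined, COL1A1 and COL3A1 rose in the same libraries. COL1A1 had 239.8 and 219.5 CPM in shIGF2BP3 and 64.3 and 70.4 CPM in shControl, and COL3A1 had 92.4 and 93.7 CPM in shIGF2BP3 and 27.3 and 32.8 CPM in shControl. COL1A2 was low, at 1.52 and 1.02 CPM in shIGF2BP3 and 1.00 and 0.415 CPM in shControl, and did not pass (adjusted p = 0.167). The 3 genes belong to a list of 10 fibroblast and Schwann cell markers with a summed level of 518.0 to 534.7 CPM in shIGF2BP3 and 382.5 to 397.0 CPM in shControl. In that list 4 of 9 tested genes were higher and 2 lower, against 25.9% and 25.6% over all genes tested. The Schwann cell factor SOX10 was at 0, and LUM was lower (log2 -1.09). The part of these cells or genes in the P4HA result was not tested.

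VEGFA, the main growth factor for blood vessels, had 171.9 and 161.3 CPM in shIGF2BP3 and 97.1 and 106.5 CPM in shControl (log2 0.71, SE 0.07, adjusted p = 3.229e-07). NDRG1, a growth arrest gene repressed by MYCN, rose to 26.4 and 26.6 CPM in shIGF2BP3, against 16.1 and 18.4 CPM in shControl (log2 0.62, SE 0.12, adjusted p = 0.000469). KDM3A, a histone demethylase, had 88.7 and 93.5 CPM in shIGF2BP3 and 79.0 and 77.5 CPM in shControl (log2 0.22, SE 0.08, adjusted p = 0.0243). The KDM3A call ended without shIGF2BP3 replicate 2 (adjusted p = 0.157), without shControl replicate 1 (0.0504) and without shControl replicate 2 (0.127).

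BNIP3, a mitophagy receptor, fell to 86.9 and 92.9 CPM in shIGF2BP3, against 165.0 and 155.7 CPM in shControl (log2 -0.83, SE 0.07, adjusted p = 3.633e-08). Its relative BNIP3L rose (log2 0.64, SE 0.07), with 168.9 and 164.9 CPM in shIGF2BP3 and 110.7 and 104.3 CPM in shControl, and was named after its values were seen. ADM, the vasodilator peptide adrenomedullin, had 16.3 and 15.9 CPM in shIGF2BP3 and 25.3 and 26.3 CPM in shControl (log2 -0.68, SE 0.12, adjusted p = 0.000172). ANKRD37 was low, at 6.64 and 5.18 CPM in shIGF2BP3 and 6.68 and 7.92 CPM in shControl, and did not pass (log2 -0.31, SE 0.22). Its exons share 909 bases with UFSP2 on the other strand. CA9, a carbonic anhydrase used as a marker of hypoxia, was below the filter, with 1 and 5 counts for shIGF2BP3 and 10 and 12 for shControl. Its exons share 643 bases with ARHGEF39 on the other strand, which held 495 and 414 counts for shIGF2BP3 and 1119 and 1187 for shControl. A level under 3 counts per library, 0.0958 to 0.111 CPM, cannot be told from 0 at this depth.

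**Figure D4:**
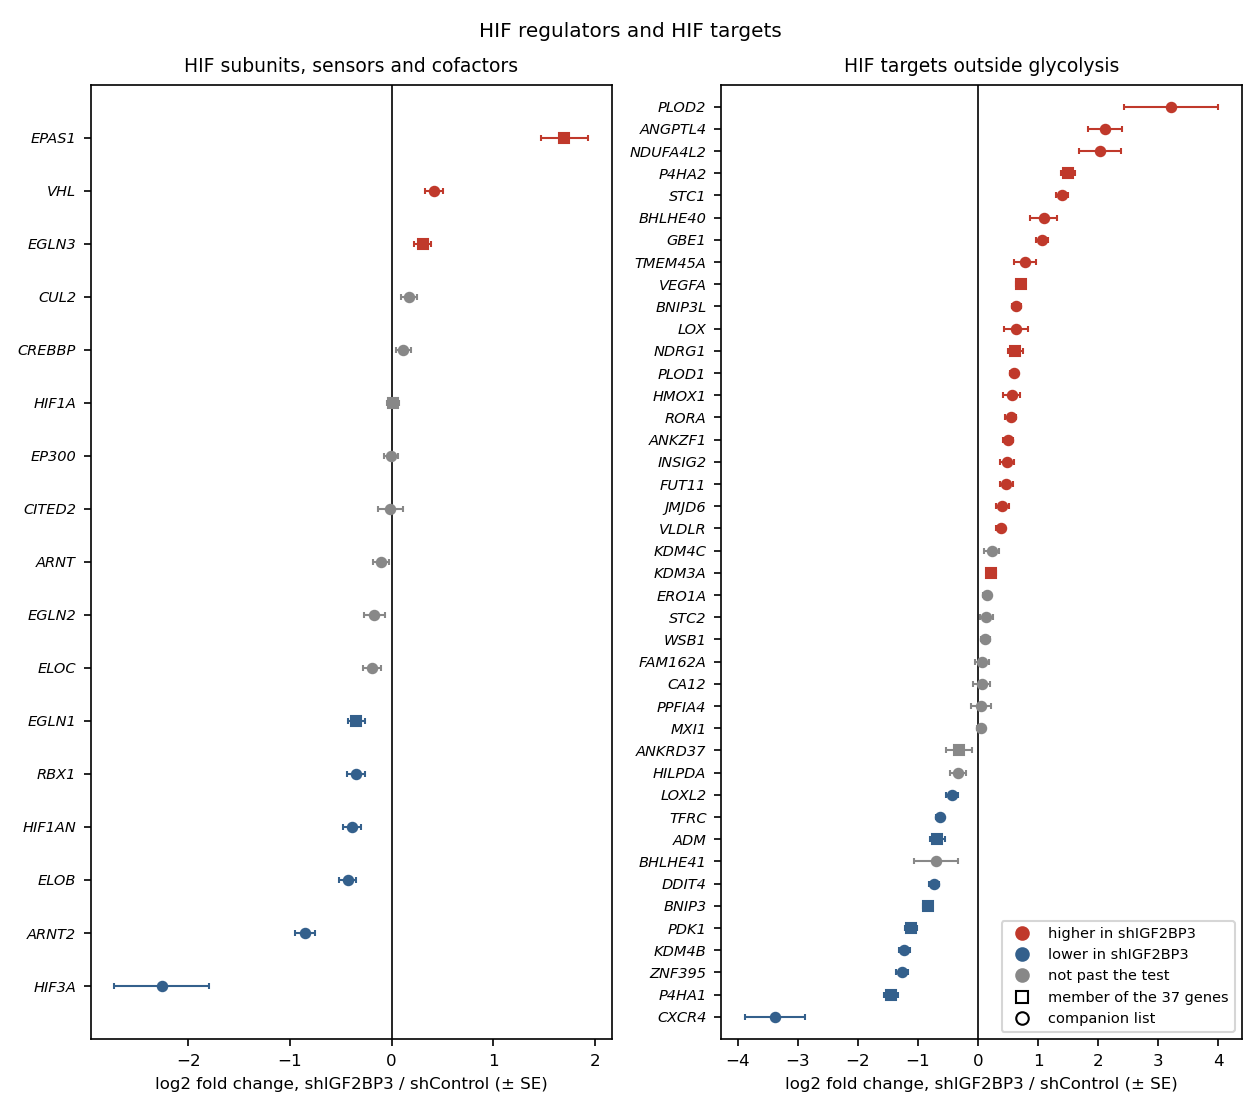
Log2 fold change of shIGF2BP3 over shControl with its SE (horizontal axis) for HIF subunits, sensors and cofactors at the left and for HIF targets outside glycolysis at the right. Squares are members of the 37 genes, circles are genes of the companion lists, and colours give the direction of calls. In the left panel EPAS1 is highest at 1.70 and HIF3A lowest at -2.26, and targets in the right panel spread to both sides of 0, with CXCR4 lowest at -3.38. One gene of the companion list is not drawn.

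Genes next to the members in the same pathways were read from companion lists, against 51.5% called over all genes tested. By direction, 25.9% of all genes tested were higher and 25.6% lower. Of 13 other genes of the HIF machinery 1 rose, 5 fell and 7 did not pass, and the median log2 fold change was -0.17. ARNT2, the neural partner subunit of HIF alpha, had 29.5 and 26.2 CPM in shIGF2BP3 and 51.0 and 49.7 CPM in shControl (log2 -0.85, SE 0.10). ELOB, a subunit of the VHL ligase, fell by 0.43 (SE 0.08) and HIF3A, a further alpha subunit, by 2.26 (SE 0.47) on the log2 scale, the last on few counts (29 and 6 in shIGF2BP3, 90 and 86 in shControl).

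Of 34 further HIF targets tested, 18 rose, 6 fell and 10 did not pass (median 0.39). That is 52.9% higher and 17.6% lower, against 25.9% and 25.6% over all genes tested. STC1, a secreted glycoprotein hormone, rose by 1.39 (SE 0.10) on the log2 scale, while KDM4B, a histone demethylase, fell by 1.23 (SE 0.09). At the low end of the list stood CXCR4, a chemokine receptor named here after its values were seen, with 11 and 5 counts for shIGF2BP3 and 74 and 103 for shControl (log2 -3.38, SE 0.50). Many genes on this list are also induced by signals other than HIF.

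Other isozymes and carriers at the edges of glycolysis that were called were mostly higher. Of 11 tested isozymes and side enzymes 5 rose, 0 fell and 6 did not pass (median 0.31). Over all genes tested, 25.9% were higher and 25.6% lower. PGM1, which links glycogen to glycolysis, had 45.0 and 37.9 CPM in shIGF2BP3 and 21.5 and 23.0 CPM in shControl (log2 0.90, SE 0.12). TIGAR, a phosphatase that lowers glycolytic flux, rose by 0.80 (SE 0.15), and PGAM2, the muscle mutase, by 3.10 (SE 0.38), to 4.73 and 4.74 CPM in shIGF2BP3 against 0.631 and 0.479 CPM in shControl. Of 11 other carriers 5 rose, 1 fell and 5 did not pass (median 0.60), with EMB, a partner protein of monocarboxylate carriers, at log2 1.99 (SE 0.09), the inositol carrier SLC2A13 at 1.09 (SE 0.14) and SLC2A6 at 0.78 (SE 0.11).

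In the pentose phosphate pathway, which branches off after hexokinase and supplies ribose and NADPH, 2 of 8 tested genes rose and 6 fell, with a median of -0.55. The shares over all genes tested were 25.9% higher and 25.6% lower. RPE, an epimerase, fell by 1.37 (SE 0.10) on the log2 scale, to 24.3 and 26.1 CPM in shIGF2BP3 against 66.2 and 64.4 CPM in shControl. TKT, transketolase, fell by 1.03 (SE 0.07) and PGD, an oxidising enzyme, by 0.51 (SE 0.07). Of 13 genes of pyruvate entry into mitochondria 3 rose, 2 fell and 8 did not pass (median 0.02). PDP1, the phosphatase that opposes PDK1, rose by 0.51 (SE 0.09), DLAT by 0.28 (SE 0.07), and PDHX fell by 0.44 (SE 0.10), the last 2 being subunits of pyruvate dehydrogenase.

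Promoter sequences were read for the members because many of them are known as direct HIF targets. RefSeq windows on GRCh38.p14, from 250 bases before to 50 after an annotated start, were found for 33 of the 37 genes (not for SLC2A3, SLC16A1, VEGFA and NDRG1). The table gives 1 start per gene, and these cells may use another. The HIF core was searched as ACGTG or GCGTG on either strand, and CACGTG, the site of MYC family proteins, contains it on both strands and so counts as 2 core matches. The core was present in 24 of 33 member windows (72.7%), 57.0% of 21194 windows of genes with a count above 0 and 48.4% of all 35116 windows. CACGTG was present in 5 member windows (15.2%), against 8.67% and 7.26% of the same backgrounds. Tested genes are a closer background for the members. Of those with a window, 7671 held a core and 4634 did not, while 1217 held CACGTG and 11088 did not.

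The windows below are printed 5′ to 3′ on the gene's own strand, with each core match in capitals. LDHA (chr11:18394313-18394612, plus strand), PGK1 (chrX:78103998-78104297, plus) and ENO1 (chr1:8878637-8878936, minus) are shown as members of the stretch that fell together. HK2 (chr2:74833877-74834176, plus) is shown as a gene with several cores that rose.
LDHA: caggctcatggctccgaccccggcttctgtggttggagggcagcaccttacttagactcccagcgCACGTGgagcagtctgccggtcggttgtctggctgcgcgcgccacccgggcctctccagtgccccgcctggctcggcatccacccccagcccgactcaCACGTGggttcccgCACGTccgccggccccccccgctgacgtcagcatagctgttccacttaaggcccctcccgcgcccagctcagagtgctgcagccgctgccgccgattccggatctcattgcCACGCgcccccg
PGK1: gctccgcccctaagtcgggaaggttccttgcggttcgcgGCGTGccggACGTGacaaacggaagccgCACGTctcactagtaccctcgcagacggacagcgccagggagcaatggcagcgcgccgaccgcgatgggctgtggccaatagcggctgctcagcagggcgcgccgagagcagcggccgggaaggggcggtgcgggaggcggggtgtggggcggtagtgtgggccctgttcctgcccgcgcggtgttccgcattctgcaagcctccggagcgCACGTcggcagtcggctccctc
ENO1: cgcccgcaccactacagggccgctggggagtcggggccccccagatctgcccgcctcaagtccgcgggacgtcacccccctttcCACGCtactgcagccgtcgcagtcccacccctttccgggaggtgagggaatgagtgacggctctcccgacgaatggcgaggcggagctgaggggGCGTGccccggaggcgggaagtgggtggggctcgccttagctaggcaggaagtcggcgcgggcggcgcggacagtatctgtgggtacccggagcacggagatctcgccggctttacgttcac
HK2: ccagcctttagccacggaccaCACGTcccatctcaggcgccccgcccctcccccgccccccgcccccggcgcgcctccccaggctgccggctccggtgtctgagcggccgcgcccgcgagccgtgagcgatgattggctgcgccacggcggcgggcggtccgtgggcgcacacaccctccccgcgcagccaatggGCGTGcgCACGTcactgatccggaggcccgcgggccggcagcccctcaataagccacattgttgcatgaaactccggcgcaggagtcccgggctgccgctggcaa
LDHA held 6 core matches and PGK1 held 4, and their log2 fold changes were -0.70 and -0.63. ENO1 held 2 (-0.78), and HK2 held 3 with a fold change of the other sign (0.59). In the stretch that fell, TPI1 and PGAM1 held 0 core matches and fell as well (log2 -0.45 and -0.28). ALDOA, ENO2, PKM and LDHB held 1 each, GAPDH held 2 and ALDOC held 5.

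The windows of the 2 collagen hydroxylases are shown because these genes moved apart. P4HA1 (chr10:73096817-73097116, minus) and P4HA2 (chr5:132227042-132227341, minus) are printed in the same way.
P4HA1: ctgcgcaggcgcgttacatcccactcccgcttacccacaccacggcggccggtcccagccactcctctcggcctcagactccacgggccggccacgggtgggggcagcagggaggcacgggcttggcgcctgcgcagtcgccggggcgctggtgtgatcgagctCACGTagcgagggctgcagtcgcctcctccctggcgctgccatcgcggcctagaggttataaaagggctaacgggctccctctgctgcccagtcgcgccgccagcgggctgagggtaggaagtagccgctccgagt
P4HA2: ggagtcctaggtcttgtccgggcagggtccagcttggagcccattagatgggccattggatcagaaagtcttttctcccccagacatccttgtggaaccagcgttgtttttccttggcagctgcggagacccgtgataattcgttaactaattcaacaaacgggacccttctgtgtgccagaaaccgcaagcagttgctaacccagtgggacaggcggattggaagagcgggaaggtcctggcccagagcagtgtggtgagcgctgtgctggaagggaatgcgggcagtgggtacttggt
P4HA1 held 1 core match, 86 bases before the start, and P4HA2 held 0 in this window. The P4HA2 window lies inside the span of the gene given above rather than at its outer end. So do the windows of some other members, among them PGK1, EGLN3 and LDHB.

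Across the members, 5 of the 23 tested genes with a core in the window rose, 14 fell and 4 did not pass, and the median log2 fold change was -0.35. Of the 9 without one, 5 rose, 3 fell and 1 did not pass (median 0.31). Over all tested genes with a window the shares were nearly level, with 29.1% higher and 30.6% lower among 7671 with a core, and 29.6% higher and 28.5% lower among 4634 without. Of the 5 members with CACGTG (ALDOC, GAPDH, LDHA, BNIP3 and ANKRD37) 0 rose, 4 fell and 1 did not pass. Among all 1217 tested genes with CACGTG 29.8% were higher and 31.5% lower. A match of letters is not evidence of binding, and the member counts are small and were read without a test.

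**Figure D5:**
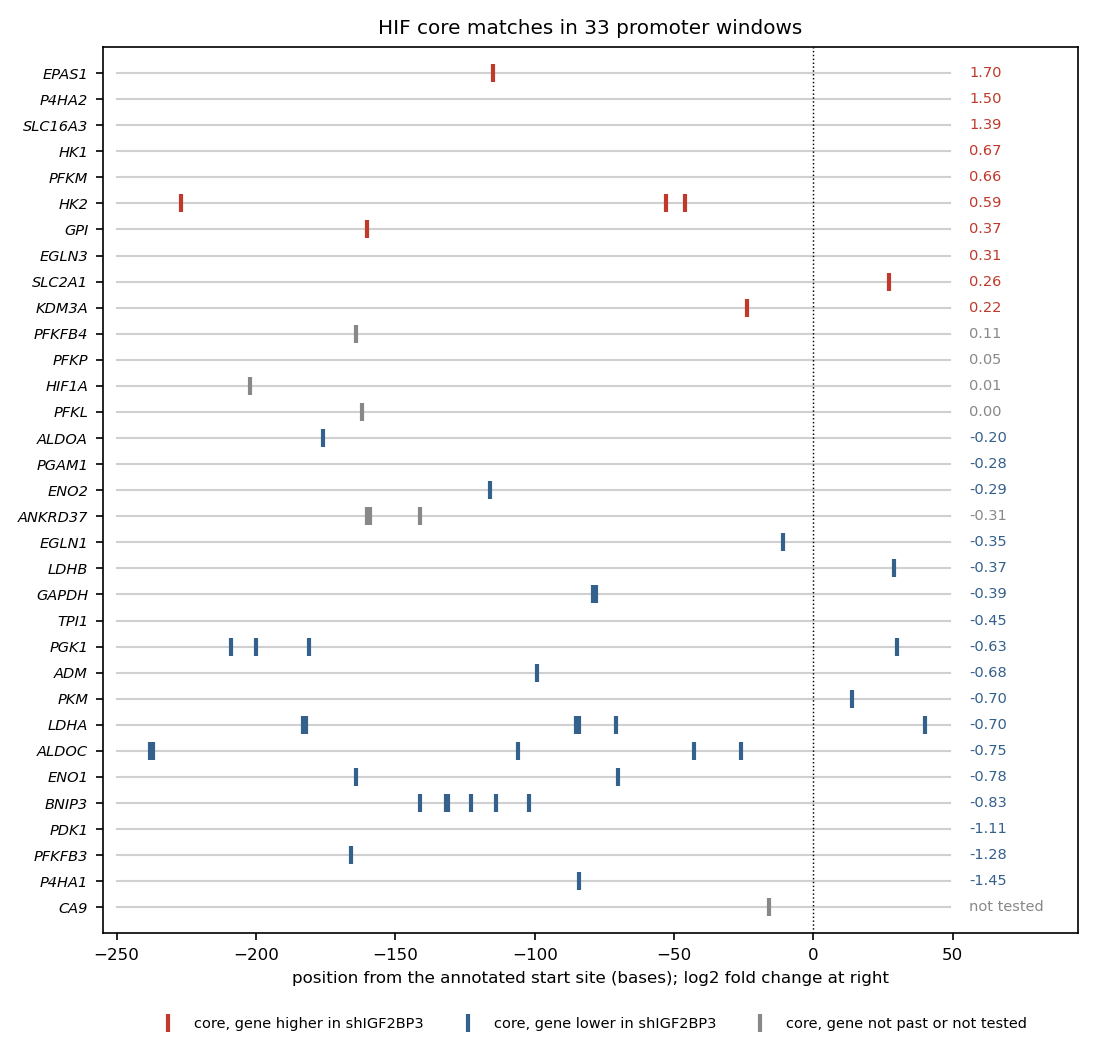
Position of HIF core matches (ticks) in the 33 windows, in bases from the annotated start (horizontal axis), with genes ordered from the highest log2 fold change at the top to the lowest at the bottom and that value at the right. Red marks genes that rose, blue genes that fell, and grey genes not past the test or not tested. BNIP3 and LDHA hold the most matches, 6 each, and both fell. EPAS1 at the top holds 1, and P4HA2, SLC16A3, HK1 and PFKM below it hold 0. HK2 holds 3 and rose, while PDK1, TPI1 and PGAM1 hold 0 and fell.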

How the data were processed

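RNA from 2 shIGF2BP3 and 2 shControl libraries was analysed. The authors deposited whole-number counts per Ensembl gene, not normalised. Per the submitters' processing notes, HISAT2 2.2.0 and StringTie were used with build hg38. For annotation, strand setting and counting rule nothing is given in the sources used here. Reads of antisense, overlapping or near-identical genes are therefore uncertain. Rows named as pseudogenes of the members (158 rows for 18 members, picked by name alone) held at most 4.43% of a member's count. That share does not bound reads lost where copies share sequence.

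The test was edgeR 4.0.16 under R 4.3.3 (filterByExpr with a smallest count of 10, TMM scaling, robust quasi-likelihood fit in its version 4 form, Benjamini-Hochberg adjustment over 19767 genes, threshold 0.05). The design left 2 residual degrees of freedom. SE is the log2 fold change divided by the root of the F statistic. Levels per length used the union of exons in GENCODE release 29. Figures were drawn with matplotlib 3.10.9. The fit was also run on counts simulated from its own means and dispersions. It recovered 67.2% of 1.5-fold, 92.5% of 2-fold and 98.5% of 4-fold changes, with 15 false calls among 19136 genes. Changes were put into 67, 67 and 66 genes, far fewer than were called in the data. Floors of 3 counts cover counting error only.

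The members, companion lists and naming rule were chosen with earlier results of these data known. Per-library values were given for members past the test with a log2 change of at least 0.8, for members with an isozyme partner, and for HIF1A, EPAS1, VEGFA, GAPDH and PKM, and up to 3 genes per companion list were named by smallest p, of which one is not reported here. Values of the remaining members were added beside these for completeness. Results were recomputed with DESeq2 1.42.0, limma voom 3.58.1, 3 further scalings, 2 filters, a replicate block, summed pseudogene rows and leaving out each library. An older edgeR fit and the alternatives for companion lists were added after seeing the data.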

Additional observations from a re-analysis of the deposited data

How the results depend on the processing

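IGF2BP3 was lower and past the test under every alternative run. Members past the test numbered 13 higher and 17 lower, and without single libraries 11 to 13 higher and 16 to 18 lower. Of 504 member values under alternatives, 487 kept their direction and side of the threshold, 8 without a call changed sign (HIF1A and PFKL), 8 lost a call (EGLN3, SLC2A1, ALDOA and KDM3A), 1 gained one (SLC16A1) and 0 called values turned. Over all genes the calls were 10178, and 8800 to 9442 without single libraries, 8869 with DESeq2, 10112 with limma voom, 8757 without a low-count filter and 9894 with the older edgeR fit. Library size alone shifted the median log2 fold change of all genes to 0.0897 and gave 5739 higher and 4405 lower. The replicate block gave 10509 calls and the same 13 and 17 member counts. Over all genes tested, same-numbered libraries hardly deviated together (r = 0.0208), and the numbers were taken only as names. Single genes can differ from this. The carrier SLC16A7 had 958 and 152 counts in shIGF2BP3 replicates 1 and 2, and 655 and 96 in shControl replicates 1 and 2. Among companion lists, the HIF machinery had 2 higher genes with upper-quartile scaling and 3 with library size alone, in place of 1. Pyruvate entry had 1 lower gene in place of 2 with library size alone, without the low-count filter and with DESeq2, and 1 to 3 without single libraries. The cause was not tested. The direction of the difference in isozyme shares was the same under each length, summing and left-out library tried, but the shares themselves depend on the length. With the longest transcript SLC16A3 made up 5.96% of its pair in shIGF2BP3 and 2.14% in shControl, and EGLN3 79.7% in shIGF2BP3 and 71.4% in shControl. Low counts limit CA9, EPAS1, PFKFB4 and ANKRD37, among others.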
